A study of Mus musculus with 16 samples.

Results

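The cytochrome P450 genes of families Cyp1, Cyp2 and Cyp3, whose products handle drugs, steroids and other foreign or lipophilic compounds, were followed in mouse liver across 4 groups of arrays. The list held 37 genes, all of them P450 genes except Por, and a gene was followed through every probeset annotated to it alone or to it and other genes of the list. By this rule 34 of the 37 genes had at least 1 probeset. The array carries 45037 probesets besides controls, and 39 of them belonged to the list. Cyp2a4 and Cyp2a5 share their only probeset and were counted once, so that 33 genes or gene pairs were counted, each by its brightest probeset. For Cyp2c40 and Por no probeset was named in the annotation used here, and Cyp3a41a was named only on a probeset shared with Cyp3a41b, so these 3 genes were not analysed here. Cyp2c44 is listed in the annotation under the symbol Cyp2c23.

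The study asked which liver genes respond to the synthetic PPARα agonist Wy14643 through the nuclear receptor PPARα. Male pure-bred mice aged 3 to 5 months received normal food or the same food with 0.1% Wy14643 by weight for 5 days. Wild-type mice were 129S1/SvImJ and PPARα-null mice were 129S4/SvJae, so genotype and substrain cannot be told apart, and the null mice lack the receptor in every tissue. Liver RNA of each mouse was hybridized to 1 Affymetrix mouse genome 430 2.0 array, with 4 arrays in each of the groups wild-type control, wild-type Wy14643, PPARα-null control and PPARα-null Wy14643.

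P450 enzymes of these families sit in the membrane of the endoplasmic reticulum and insert an oxygen atom into their substrates, using electrons delivered by the reductase Por. Liver is their main site, and many of them are transcribed under the control of sensors of foreign compounds: the aryl hydrocarbon receptor for Cyp1a2, CAR (Nr1i3) for Cyp2b10 and PXR (Nr1i2) for Cyp3a11. Other members, among them Cyp2d9, differ between male and female mouse liver, and Cyp2c members also oxidize arachidonic acid, retinoids or bile acids.

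All values are log2 of the deposited intensity. The array medians lay between 2.15 and 2.24, and the highest value of an array between 14.14 and 14.45. A group whose mean did not exceed 2.24 is called dim here, and a difference that involves a dim group is given as a bound or, where so named, as the fitted value of limma, which is no measured size. Arrays of 1 group correlated at r = 0.987 to 0.995 over all probesets, and arrays of different groups at 0.961 to 0.993. The 3 probesets of Ppara were lower in PPARα-null than in wild-type mice on Wy14643, by 1.15, 1.43 and 2.20. On control food, in the same order, they were lower by 0.63 (limma adjusted p 0.14), 1.38 and 1.59. They kept a signal of 5.90 to 10.04 in the null mice, and whether their probes match the disrupted part of Ppara was not analysed here. All 6 hepatocyte markers were above the dim range in every group. Levels are compared within a probeset only, since probesets differ in how strongly they bind.

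In wild-type mice Wy14643 lowered 17 of the 33 members and raised none. The responses of the 17 ranged from -0.70 for Cyp2d40 to -5.44 for Cyp2c54, and 7 of the 17 belonged to the Cyp2c subfamily. For Cyp2c37 and Cyp2c55, dim on Wy14643, the values inside that range are fitted ones. A member was called when limma gave an adjusted p under 0.01 and a fold over 1.5, and by the same rule 6.74% of all 18194 genes were called lower and 7.72% were called higher. The median difference of the members was -0.70 (all genes, -0.03). At an unadjusted p under 0.05, 21 members were lower and 1 was higher, beside 13372 of all 45037 probesets in either direction. Of the 21 members with a mean above 6, 12 were called lower, compared with 15.9% of the 5170 genes with such a mean.

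In PPARα-null mice limma called 0 of the 33 members in response to the same food. The called share of all genes was 0.0275% higher and 0% lower, and the members' median difference was 0.03 (all genes, 0.01). At an unadjusted p under 0.05, limma gave 4 members higher and 2 lower, beside 4154 of all 45037 probesets in either direction. The difference between the responses of the genotypes, tested as an interaction, was called for 15 members, each with the lower response in wild type. Among all genes 4.62% had such a call and 5.38% had the opposite one, and the median interaction of the members was -0.75 (all genes, -0.04).

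**Figure D1:**
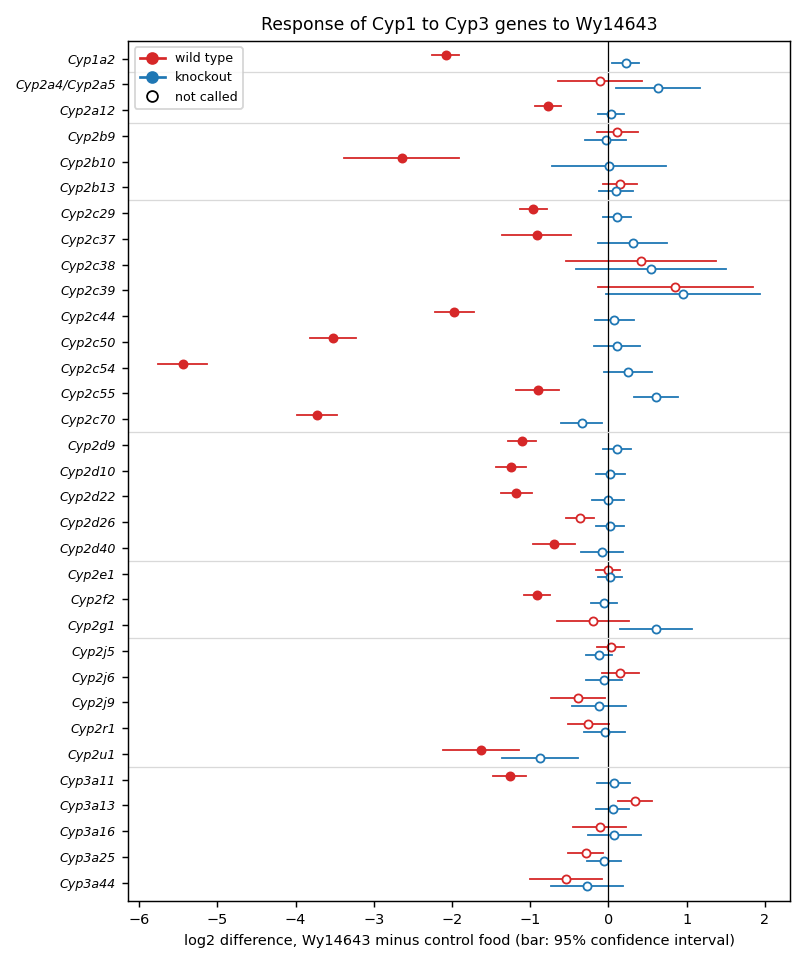
Response of each of the 33 members to Wy14643 as the log2 difference between Wy14643 and control food (x axis), in wild-type mice (red) and PPARα-null mice (blue), with 4 arrays a group. Points are limma estimates, bars are 95% confidence intervals, filled points passed the call rule, grey lines part the subfamilies, and points of members with a dim group are fitted values; the 17 filled points are all red and all left of 0, down to -5.44 for Cyp2c54.

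Some marker genes of several liver cell types were also lower in the same arrays. The summed signal of the 6 hepatocyte markers was 15.93 to 15.98 in wild-type control mice and 15.57 to 15.71 on Wy14643, with Cps1 (-0.97) and Serpina1c (-0.78) called lower. Alb (-0.07), Ttr (-0.10), Apoa1 (-0.26) and Tat (-0.70) were not called. The summed signal of the 8 Kupffer cell markers was 9.92 to 10.13 and 9.05 to 9.34, with 6 of 8 called lower. Marco was not called and was dim on Wy14643. Of the 8 stellate cell markers 4 were called lower, with a sum of 10.92 to 11.06 on control food and 10.30 to 10.50 on Wy14643. Lrat (0.80), Col1a1 (0.66) and Col3a1 (0.35) had positive differences that were not called. That of Col1a1 is a fitted value because it was dim on control food, and Des was dim in all 4 groups. The 8 markers of sinusoidal endothelium gave 10.41 to 10.61 and 9.98 to 10.24, with 2 called lower and Lyve1 called higher. Of 6 cholangiocyte markers limma called 0 (1 at an unadjusted p under 0.05), with sums of 4.72 to 4.87 and 4.67 to 4.90. Among them 4 were dim in wild-type controls and 5 in wild-type mice on Wy14643, so a change could hardly be seen. Krt19, Krt7 and Cftr were dim in all 4 groups. In PPARα-null mice limma called 0 markers of these lists in response to Wy14643, with 1 Kupffer cell marker and 1 endothelial marker at an unadjusted p under 0.05. In whole liver, fewer cells of a type and less RNA per cell cannot be told apart, and the part of these shifts in the P450 results was not tested.

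Stretches upstream of 5 members are shown. Cyp2c50 and Cyp2c70 fell the furthest of those with a promoter window. Cyp2b10 and Cyp1a2, which fell too, are the classical targets of CAR and of the aryl hydrocarbon receptor. Cyp2e1 did not pass the test in any comparison. Each is the 250 bases before the annotated start, 5′ to 3′ on the gene's strand, from RefSeq on GRCm38.p6, a C57BL/6J reference that may differ from the 129S1/SvImJ and 129S4/SvJae mice studied. The windows are chr19:40089429-40089678 (plus strand), chr19:40187287-40187536 (minus strand), chr7:25897408-25897657 (plus strand), chr9:57683656-57683905 (minus strand) and chr7:140763569-140763818 (plus strand). Capitals mark AGGTCA (the half-site of nuclear receptors), CAAAGT (the core of HNF4α sites), GCGTG (the core of aryl hydrocarbon receptor sites) and TATAAA (the TATA box), each searched on both strands, where AGGTCA and CAAAGT can overlap by the letters CA.
Cyp2c50: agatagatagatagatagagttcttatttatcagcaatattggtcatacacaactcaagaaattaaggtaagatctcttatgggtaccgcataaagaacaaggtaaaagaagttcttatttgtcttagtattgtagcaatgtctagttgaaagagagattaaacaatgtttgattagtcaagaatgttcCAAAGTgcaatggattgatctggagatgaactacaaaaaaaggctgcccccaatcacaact
Cyp2c70: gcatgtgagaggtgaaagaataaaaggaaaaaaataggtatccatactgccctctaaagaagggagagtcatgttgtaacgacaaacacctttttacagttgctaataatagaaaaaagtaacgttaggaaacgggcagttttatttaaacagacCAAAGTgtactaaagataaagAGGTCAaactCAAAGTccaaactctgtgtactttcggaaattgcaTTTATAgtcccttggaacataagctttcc
Cyp2b10: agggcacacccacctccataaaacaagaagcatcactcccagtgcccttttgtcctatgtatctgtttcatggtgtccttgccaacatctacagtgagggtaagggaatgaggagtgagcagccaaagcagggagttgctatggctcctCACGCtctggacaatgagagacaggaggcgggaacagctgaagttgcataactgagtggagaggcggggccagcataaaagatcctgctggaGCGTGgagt
Cyp1a2: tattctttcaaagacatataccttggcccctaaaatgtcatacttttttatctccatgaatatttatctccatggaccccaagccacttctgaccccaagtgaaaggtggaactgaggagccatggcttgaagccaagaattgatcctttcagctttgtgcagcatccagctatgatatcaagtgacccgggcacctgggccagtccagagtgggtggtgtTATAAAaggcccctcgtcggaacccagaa
Cyp2e1: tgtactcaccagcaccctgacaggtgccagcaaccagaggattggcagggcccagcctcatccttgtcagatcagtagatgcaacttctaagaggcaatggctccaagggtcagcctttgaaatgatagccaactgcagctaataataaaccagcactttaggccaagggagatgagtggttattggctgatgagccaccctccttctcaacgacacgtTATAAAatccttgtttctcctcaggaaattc
Windows of this kind were found for 32 of the 37 genes, 34 windows in all because 2 genes have 2 starts. TATAAA was present in 18 of the 34 windows and in 12.4% of all 32851 windows, with 9 of the 13 windows of genes that fell in wild-type mice and 8 of 18 of measured genes that were not called. CAAAGT was present in 20 of 34 (all windows, 12.6%), with 5 of 13 and 13 of 18 in the same order. AGGTCA was present in 11 of 34 (all windows, 14.0%), with 4 of 13 and 7 of 18, and GCGTG in 3 of 34 (all windows, 28.2%), with 1 of 13 and 1 of 18. Genes of a subfamily are copies of each other and share sequence, so these windows are not independent, and a match is a description of letters only.

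Cyp1a2, which oxidizes caffeine and aromatic amines, was the only Cyp1 gene of the list and fell 4.23-fold in wild-type mice. Its probeset read 12.20, 12.35, 12.25 and 12.23 in the wild-type controls and 10.27, 10.04, 10.20 and 10.18 on Wy14643. In PPARα-null mice it read 12.30, 12.28, 12.15 and 12.42 on control food and 12.52, 12.50, 12.46 and 12.55 on Wy14643. The wild-type Wy14643 arrays lay apart from all 12 others, and both null groups lay at or near the level of the wild-type controls. The response was -2.08 ± 0.08 (SE) in wild type, with a limma adjusted p of 4.45e-12, and 0.22 ± 0.08 in PPARα-null mice, with an adjusted p of 0.413, and the interaction was -2.30 (adjusted p 3.65e-10).

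Cyp2e1, which oxidizes ethanol and paracetamol, stayed within a narrow band in every group. It read 13.43, 13.44, 13.41 and 13.42 in wild-type controls and 13.34, 13.49, 13.44 and 13.41 in wild-type Wy14643 mice. In PPARα-null mice it read 13.43, 13.41, 13.43 and 13.49 on control food and 13.43, 13.46, 13.39 and 13.57 on Wy14643. All 4 groups overlapped. The response of wild type was -0.01 with a 95% interval of -0.16 to 0.15, which leaves out changes past the 1.5-fold rule in either direction on this scale. These values lie close under the highest values of the arrays, where a probeset may saturate, and whether it did was not tested. Cyp2f2, which activates naphthalene, fell in the wild-type mice, from 12.66, 12.74, 12.72 and 12.83 to 11.76, 11.75, 11.89 and 11.90. In the null mice it read 12.68, 12.66, 12.67 and 12.61 on control food and 12.50, 12.63, 12.56 and 12.68 on Wy14643. The wild-type Wy14643 arrays were again the low ones, and the response was -0.91 ± 0.08 (1.88-fold lower, adjusted p 1.01e-07). Cyp2g1, known from olfactory mucosa, was dim in 3 of the 4 groups.

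**Figure D2:**
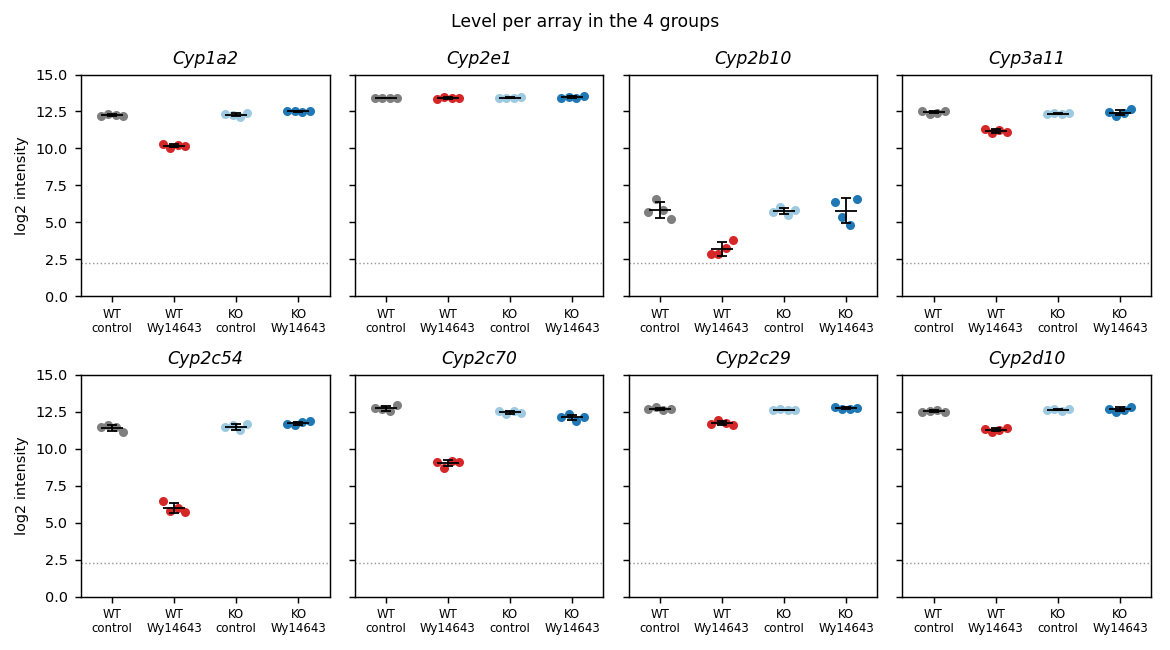
Level of 8 members on each array (points; y axis, log2 intensity from 0) in the 4 groups, with the mean and SD of 4 arrays (black bars) and the dim limit of 2.24 (dotted line). The wild-type Wy14643 arrays are the lowest in every panel but that of Cyp2e1, and the PPARα-null Wy14643 arrays lie near both control groups.

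The Cyp2c subfamily had the widest spread of responses, from -5.44 to 0.86, and 7 of its 9 measured members fell in wild-type mice. Cyp2c54, an arachidonic acid-metabolizing enzyme, fell 43.5-fold, the largest change of any member. Its probeset read 11.46, 11.59, 11.49 and 11.13 in wild-type controls and 6.43, 5.80, 5.97 and 5.70 on Wy14643. In PPARα-null mice it read 11.44, 11.64, 11.23 and 11.65 on control food and 11.67, 11.64, 11.80 and 11.85 on Wy14643. The 4 wild-type Wy14643 arrays stood far below the rest, and the other 3 groups overlapped or adjoined each other. The response was -5.44 ± 0.15 in wild type (adjusted p 2.63e-14) and 0.25 ± 0.15 in PPARα-null mice (adjusted p 0.656).

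Cyp2c70, which makes muricholic acids and so sets the composition of the mouse bile acid pool, and Cyp2c50 also fell steeply. Both are given by array after their values were seen. Cyp2c70 went from 12.77, 12.68, 12.58 and 12.97 to 9.10, 8.70, 9.20 and 9.09 in wild-type mice, a 13.2-fold fall (-3.73 ± 0.12, adjusted p 3.7e-13). In PPARα-null mice it read 12.53, 12.38, 12.56 and 12.41 on control food and 12.13, 12.34, 11.89 and 12.14 on Wy14643. No group overlapped another for this gene, and the null difference of -0.34 did not pass the test (adjusted p 0.368). Cyp2c50 went from 12.12, 12.19, 12.10 and 11.94 to 8.85, 8.63, 8.71 and 8.05, an 11.5-fold fall (-3.52 ± 0.14, adjusted p 3.84e-12), against a difference of 0.10 ± 0.14 in the null mice.

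The falls of the other Cyp2c members were smaller. Cyp2c44, an epoxygenase of arachidonic acid, went from a mean of 11.33 ± 0.09 (SD, n = 4) to 9.36 ± 0.29, a 3.92-fold fall. Cyp2c29 went from 12.70 ± 0.07 to 11.74 ± 0.13, a 1.94-fold fall. Cyp2c37 and Cyp2c55 were called lower from levels just above the dim limit, 2.62 and 2.58, to dim levels of 1.70 and 1.67, so they were at least 1.30-fold and 1.26-fold lower. The call of Cyp2c37 was lost without wild-type control replicate 2 (adjusted p 0.0139) or without wild-type Wy14643 replicate 2 (0.0111) or replicate 3 (0.0136), and both calls were lost when 16 was added to the intensities. Cyp2c37, Cyp2c50 and Cyp2c54 are near-identical copies, and how far their probesets take up each other's transcripts was not analysed here.

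In the order of the genes on chromosome 19 (GRCm38.p6), the 4 measured genes at one end of the cluster, Cyp2c37, Cyp2c54, Cyp2c50 and Cyp2c70, were all called lower, and the largest 3 falls of the subfamily were neighbours. No other protein-coding gene lies between Cyp2c55 and Cyp2c70 in this order, and Cyp2c44, which fell too, lies 52 coding genes away. Cyp2c39 and Cyp2c38 are neighbours as well. They were the measured members of the cluster with no called response in wild-type mice, with differences of 0.86 and 0.42.

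**Figure D3:**
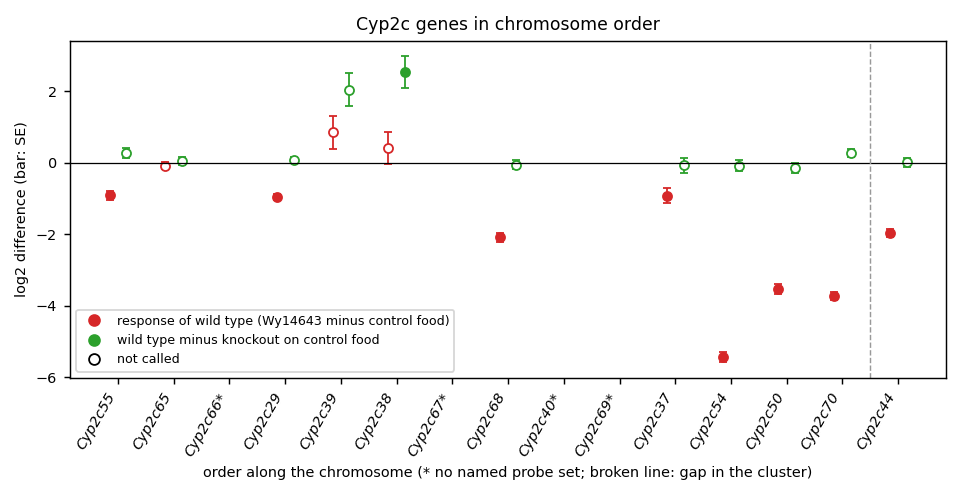
Cyp2c genes in their order along the chromosome (x axis, not to scale) with the response of wild type to Wy14643 (red) and the difference between wild type and PPARα-null on control food (green), as log2 differences with SE from 4 arrays a group; filled points passed the call rule. Red points reach -5.44 at Cyp2c54, and the green points lie near 0 except at Cyp2c39 (2.05) and Cyp2c38, whose point is a fitted value because the null controls were dim (a difference of at least 2.33).

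Cyp2c39, which hydroxylates retinoic acid, and Cyp2c38 were higher in wild-type than in PPARα-null mice on Wy14643, and both are given by array after their values were seen. Cyp2c38 read 4.64, 4.55, 4.60 and 4.47 in wild-type controls and 5.89, 4.61, 4.68 and 4.76 in wild-type Wy14643 mice. It read 1.95, 2.64, 1.35 and 2.18 in PPARα-null controls and 2.70, 1.25, 4.24 and 2.12 in PPARα-null Wy14643 mice. Every wild-type array lay above every null array, and the null controls were dim as a group, so that on control food the wild-type level was at least 5.03-fold higher (adjusted p 0.00949). That call was lost in 13 of the 16 fits that each left out 1 array. On Wy14643 the difference was 2.41 (adjusted p 0.000682) and its call was kept in all 16.

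Cyp2c39 read 8.65, 8.32, 8.40 and 8.43 in wild-type controls and 9.84, 9.25, 8.89 and 9.25 in wild-type Wy14643 mice. It read 6.76, 7.22, 4.80 and 6.84 in the null controls and 7.25, 6.44, 8.80 and 6.95 in the null mice on Wy14643. Replicate 3 was the lowest null control and the highest null Wy14643 array for Cyp2c38 and for Cyp2c39. Whether the probesets of these 2 genes take up each other's transcripts was not analysed here. The genotypes did not overlap on control food, where the difference of 2.05 ± 0.47 missed the threshold (adjusted p 0.0594), nor on Wy14643, where the difference of 1.95 was called (adjusted p 0.00514). The latter call was lost in 6 of 16 fits without 1 array. Each of those fits left out 1 of wild-type Wy14643 replicates 1, 2 and 4 or null Wy14643 replicates 1, 2 and 4. Their differences were 1.64 to 1.97, and those of all 16 fits were 1.64 to 2.43. The wild-type arrays on Wy14643 all lay above their controls for Cyp2c39, and the rise of 0.86 passed the rule when limma was fitted to the wild-type arrays alone (adjusted p 0.00605) but not with all 16 arrays (adjusted p 0.244).

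On control food the genotypes differed in 2 of 33 members. Cyp2c38 was higher in wild type (all genes, 0.401%) and Cyp2u1 was lower (all genes, 0.143%), and the median difference was -0.01 (all genes, 0.00). Cyp2u1, a hydroxylase of long-chain fatty acids, read 4.93, 4.55, 4.35 and 5.04 in wild-type controls and 5.83, 5.97, 6.77 and 6.05 in null controls. On Wy14643 it read 2.87, 3.05, 3.48 and 2.97 in wild-type and 5.73, 5.29, 5.39 and 4.70 in null mice. The wild-type Wy14643 arrays were lowest, and the wild-type controls overlapped the null Wy14643 arrays but not the null controls. The difference on control food was -1.44 ± 0.23 (2.71-fold lower in wild type, adjusted p 0.00313). Its call was lost without wild-type control replicate 2 or 3 or null control replicate 3 or 4, with differences of -1.47 to -1.23. Over all fits without 1 array the difference was -1.54 to -1.23. Wild type responded with -1.63 ± 0.23 (adjusted p 3.82e-05) and the null mice with -0.88 ± 0.23 (adjusted p 0.184), and the interaction of -0.75 did not pass (adjusted p 0.17). A second probeset of Cyp2u1, near the dim limit, was called in none of the comparisons. Its mean in wild-type mice was 2.61 on control food and a dim 1.98 on Wy14643, and the genotypes differed by -0.82 on control food.

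**Figure D4:**
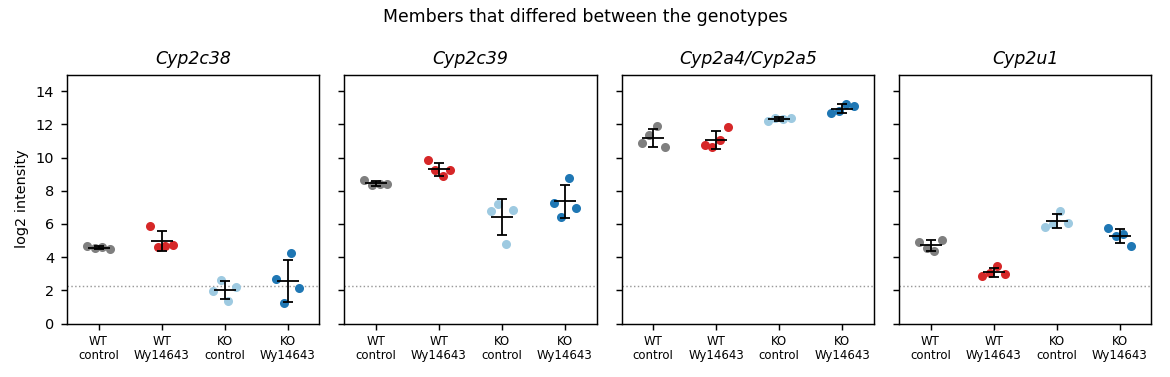
Level of Cyp2c38, Cyp2c39, Cyp2a4/Cyp2a5 and Cyp2u1 on each array (points; y axis, log2 intensity from 0) in the 4 groups, with the mean and SD of 4 arrays (black bars) and the dim limit of 2.24 (dotted line). On Wy14643 Cyp2c38 and Cyp2c39 are higher in wild-type mice and Cyp2a4/Cyp2a5 and Cyp2u1 are lower, and replicate 3 of the null groups is the far point for Cyp2c39, at 4.80 on control food and 8.80 on Wy14643.

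On Wy14643, the comparison of the genotypes that the study itself used, 19 members were lower in wild type and 2, Cyp2c38 and Cyp2c39, were higher. The shares of all genes were 7.13% and 8.12%, and the members' median difference was -0.90 (all genes, -0.04). This comparison shares its wild-type Wy14643 arrays with the wild-type response and with the interaction. Among the 19 was Cyp2g1, at least 1.42-fold lower because its wild-type level was dim, and the member pair Cyp2a4/Cyp2a5.

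Cyp2a4 and Cyp2a5, hydroxylases of steroids and of coumarin and nicotine, had no called response in wild type but lay lower there than in the null mice. Their shared probeset, shown by array after its values were seen, read 10.85, 11.36, 11.89 and 10.63 in wild-type controls and 10.76, 10.63, 11.05 and 11.84 on Wy14643. It read 12.18, 12.40, 12.29 and 12.38 in null controls and 12.68, 12.79, 13.21 and 13.11 in null Wy14643 mice. Both null groups lay above all wild-type arrays and did not overlap each other. The difference between the genotypes was -1.13 ± 0.26 on control food (adjusted p 0.0571) and -1.87 ± 0.26 on Wy14643, which passed (3.67-fold lower in wild type, adjusted p 2.55e-05). The response of the null mice was 0.63 (adjusted p 0.457) and the interaction -0.74 (adjusted p 0.235). Cyp2a12, a steroid hydroxylase, fell in wild type from 11.54, 11.68, 11.71 and 11.71 to 10.85, 10.81, 10.92 and 10.98. In the null mice it read 11.71, 11.79, 11.77 and 11.80 on control food and 11.78, 11.86, 11.71 and 11.82 on Wy14643. Wild-type mice on Wy14643 lay below all others, with a response of -0.77 ± 0.08 (adjusted p 7.51e-07).

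Cyp2b10, the phenobarbital-inducible member, fell 6.25-fold in wild-type mice. It read 5.72, 6.59, 5.82 and 5.23 in wild-type controls and 2.84, 2.85, 3.26 and 3.82 on Wy14643. It read 5.69, 6.04, 5.52 and 5.85 in null controls and 6.35, 5.35, 4.81 and 6.60 in null Wy14643 mice. Arrays of treated wild-type mice did not overlap the others, and the null Wy14643 arrays spread the most. The response was -2.64 ± 0.35 in wild type (adjusted p 1.73e-05) and 0.00 ± 0.35 in null mice (adjusted p 0.998), and the interaction was -2.65 (adjusted p 0.00113). A pair of further probesets, of the kind that can bind transcripts of related genes, gave responses of -3.49 and -3.04. In both, wild-type Wy14643 replicate 4 stood high, at 4.43 and 4.22, while the other 3 arrays lay at 1.48 to 1.93 and at 1.87 to 2.31. Cyp2b9 and Cyp2b13, known as female-biased genes, were dim in all 4 groups.

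The Cyp2d subfamily fell together in wild type, with 4 of 5 members called lower. Cyp2d10 had the largest fall among the brightest probesets of these genes and read 12.50, 12.55, 12.61 and 12.46 in wild-type controls and 11.34, 11.15, 11.24 and 11.41 on Wy14643. In null mice it read 12.62, 12.70, 12.58 and 12.66 on control food and 12.68, 12.51, 12.64 and 12.84 on Wy14643. The low group was once more wild type on Wy14643, with a response of -1.25 ± 0.09 (2.37-fold lower, adjusted p 9.1e-09) against 0.03 ± 0.09 in null mice. Cyp2d9, the testosterone hydroxylase typical of male liver, fell by 1.11 (2.15-fold, adjusted p 2.12e-08). Cyp2d22 fell by 1.18 on its brightest probeset and by 1.79 on the other. Cyp2d40 fell by 0.70 near the low end of the scale, from 3.26 ± 0.23 to 2.56 ± 0.18, and lost its call when 16 was added to the intensities. Cyp2d26 had a limma adjusted p of 0.0039 but a difference of -0.36, 1.29-fold, under the fold that a call needs.

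Of the 5 Cyp2j, Cyp2r and Cyp2u genes, 4 were not called in wild type, and Cyp2u1 was lower. Cyp2j5, Cyp2j6 and Cyp2j9, epoxygenases of polyunsaturated fatty acids, had wild-type responses of 0.03 (95% interval -0.14 to 0.20), 0.15 (-0.08 to 0.38) and -0.39 (-0.73 to -0.05). Cyp2r1, a vitamin D hydroxylase, had one of -0.26 (-0.52 to 0.01). The probesets of Cyp2j6 disagreed: on the dimmer one the interaction was 0.62 ± 0.13 and called (adjusted p 0.00319), from wild-type means of 6.46 and 6.85 and null means of 6.84 and 6.60, and on the brighter one it was 0.21 ± 0.16 (adjusted p 0.478). The other probeset of Cyp2j5 gave a response of -0.27, not called either (adjusted p 0.115).

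Cyp3a11, the major drug-metabolizing member of family 3, fell 2.39-fold in wild type and was the only 1 of 5 measured Cyp3a genes to do so. It read 12.52, 12.36, 12.40 and 12.52 in wild-type controls and 11.35, 11.03, 11.26 and 11.12 on Wy14643. It read 12.31, 12.42, 12.31 and 12.39 in null controls and 12.48, 12.21, 12.36 and 12.64 in null Wy14643 mice. Treated wild-type mice were lowest, and the other 3 groups overlapped. The response was -1.26 ± 0.10 in wild type (adjusted p 3.81e-08) and 0.07 ± 0.10 in the null mice (adjusted p 0.893). Cyp3a25, from the same cluster, had a wild-type response of -0.29 (95% interval -0.51 to -0.07, adjusted p 0.0607), and Cyp3a13 one of 0.34 (0.13 to 0.55, adjusted p 0.0224), with all its wild-type Wy14643 arrays above the controls. Cyp3a44, a gene of female liver, had one of -0.54 at wild-type means of 2.93 and 2.39 (adjusted p 0.0958), and Cyp3a16, a gene of fetal liver, was dim in all groups.

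The sensors and cofactors of these enzymes did not move as one group. Of 12 regulators of P450 genes, 2 rose and 3 fell in wild-type mice, with a median of -0.29. Nr1i2, which encodes PXR, rose by 1.79 ± 0.21 (adjusted p 4.24e-06) and Nr1i3, which encodes CAR, by 0.88 ± 0.12 (adjusted p 1.73e-05), while Nr0b2, the repressor SHP, had a difference of -1.37 ± 0.33 (adjusted p 0.00587). Cebpa (-0.89) and Ahr (-0.65) were lower too. The PXR and CAR transcripts rose in the same arrays in which Cyp3a11 and Cyp2b10, their classical targets, fell. In null mice the differences were -0.20 for Nr1i2, 0.41 for Nr1i3 and -0.61 for Nr0b2, and limma called none. Of the 12 regulators only Nr1i2 had a called interaction (1.99, adjusted p 0.000128). Those of Nr1i3 (0.47, adjusted p 0.0726) and Nr0b2 (-0.76, adjusted p 0.379) did not pass.

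Of 14 measured partners of the P450 reaction and enzymes of heme synthesis and breakdown, 2 rose and 1 fell in wild-type mice, with a median of -0.03. Blvrb, a biliverdin reductase, rose by 1.17 and Cpox, an enzyme of heme synthesis, by 0.74, and Cyb5r3, the reductase of cytochrome b5, differed by -0.60. Alas1, the rate-limiting enzyme of heme synthesis, varied strongly between mice of a group, with SDs of 0.46 to 1.81, and was not called (1.24 ± 0.76 in wild type, adjusted p 0.31). In the null mice limma called 0 genes of either list (2 regulators and 3 partners at an unadjusted p under 0.05).

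Of 8 measured male-biased genes that are not members, 5 were lower in wild-type mice on Wy14643. The steroid dehydrogenase Hsd3b5 responded with -7.52 and the organic anion transporter Slco1a1 with -3.76, and C6, Mup3 and Cyp7b1 with -2.66, -2.13 and -1.40. Of the other 3, Cyp4a12a had a positive difference of 0.47 (adjusted p 0.000821) under the fold that a call needs, Elovl3 had one of -0.24 (adjusted p 0.713), and Ugt2b38 was dim in all 4 groups. Of 4 measured female-biased genes 1 was higher, Hao2, which went from a dim 1.87 ± 0.10 to 5.13 ± 0.96. In the null mice limma called 0 of these 12 genes (1 at an unadjusted p under 0.05), and between the genotypes on control food 0 (2). Whether the shift of sex-biased genes and that of the P450 genes are linked was not tested.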

How the data were processed

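Liver RNA of 16 mice, 4 in each of 4 groups, was hybridized singly to Affymetrix mouse genome 430 2.0 arrays. The deposited value is 1 intensity for each probeset on each array. The submitters' processing notes name GCRMA 2.20, a method that uses probe sequence for the background, equalizes the array distributions and combines the probes of a set. Array medians of 4.43 to 4.72 and maxima of 18107 to 22364 place the intensities on a linear scale, so log2 was taken with no offset. A shift common to most genes is lost in such a normalization. RNA amount and labelling are given differently in the labels and in the methods. The number of arrays limits the precision.

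Of 45101 probesets, 64 controls were dropped and 45037 were fitted in limma 3.58.1 (R 4.3.3), using all 16 arrays, group means and moderated variances, and Benjamini-Hochberg adjustment over all of them. A call needed an adjusted p under 0.01 and a fold over 1.5, the thresholds of the study's methods. SE, 95% intervals and adjusted p in the text are from this fit. Each of 18194 genes was represented by its brightest single-gene probeset. The annotation names 1 gene for 34945 probesets, several for 932 and none for 9160, and RefSeq gave current symbols and gene order.

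Values by array are given, in each subfamily, for the called member with the largest rise and fall in wild type and a higher group mean of at least 6, for members called in null mice or between genotypes on control food with such a mean, and for Cyp1a2, Cyp2b10, Cyp2e1 and Cyp3a11; the rule also held Por, which had no named probeset. From other lists up to 4 called genes with the largest change are named; Ahr, Cyp7b1 and the genes named without a call were added after their values were seen. The lists were regulators, partners and heme, male-biased and female-biased genes, other Cyp1 to Cyp3 genes, and markers of hepatocytes, Kupffer cells, stellate cells, sinusoidal endothelium and cholangiocytes. The members and lists were chosen with earlier results of these data known. The fit was tested on simulated data. Alternatives were filters on the mean, other scalings, an offset of 16, array weights, trended robust moderation, the compared arrays alone, a replicate block, another threshold, other choices of probeset and leaving out each array. The groups share replicate numbers, but nothing in the labels pairs mice.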

Additional observations from a re-analysis of the deposited data

Results flagged for a closer look

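In 7 of 132 sets of 4 arrays (33 members in 4 groups), 1 array stood far from the other 3 compared with the range of the set. Chance gives about 1 in 20 such sets. Cyp2c29 read 12.67 on PPARα-null control replicate 2 (others 12.60 to 12.61), and Cyp2c55 read 2.45 on the same array (2.22 to 2.26). Cyp2c38 read 5.89 on wild-type Wy14643 replicate 1 (4.61 to 4.76), and Cyp2c44 read 11.55 on PPARα-null Wy14643 replicate 3 (11.32 to 11.36). Cyp2d40 read 2.83 on wild-type Wy14643 replicate 3 (2.45 to 2.51). Cyp2j6 read 7.48 on PPARα-null control replicate 1 (7.32 to 7.34) and 7.05 on PPARα-null Wy14643 replicate 4, where the others all read 7.39.

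The response to Wy14643 differed between the genotypes, by the interaction term of limma, for 15 of the 33 members. In the Cyp2c subfamily the interaction was -5.69 for Cyp2c54, -3.63 for Cyp2c50, -3.38 for Cyp2c70, -2.05 for Cyp2c44, -1.51 for Cyp2c55, -1.23 for Cyp2c37 and -1.07 for Cyp2c29. In the Cyp2d subfamily it was -1.27 for Cyp2d10, -1.21 for Cyp2d9 and -1.17 for Cyp2d22. It was -2.65 for Cyp2b10, -2.30 for Cyp1a2, -1.33 for Cyp3a11, -0.85 for Cyp2f2 and -0.80 for Cyp2a12. The values for Cyp2c55 and Cyp2c37 are fitted ones, since both genes were dim in wild-type mice on Wy14643, and are no measured sizes. For Cyp2c55 part of it was a difference of 0.61 in the null mice, which did not pass the test (adjusted p 0.1). The value for Cyp2c37 lost its call in 11 of the 16 fits without 1 array.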

How the results depend on the processing

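No called member changed direction under any alternative. In wild type the count of members lower was 14 and 12 with means above 4 and above 6 required (24 and 21 members tested), 14 with 16 added to the intensities, and 18 at an adjusted p under 0.05 with no fold minimum. The count higher became 1 at that threshold (Cyp3a13) and 1 with only the wild-type arrays fitted (Cyp2c39). Between the genotypes on control food the count higher, 1, became 0 with a mean above 4 or above 6 required, with array medians centred, with 16 added, with trended robust moderation and with the replicate block, and was 0 to 1 in the fits without 1 array. The count lower, 1, became 0 with a mean above 6 required, with only the compared arrays and with the mean of a gene's probesets, and was 0 to 1 without 1 array. The filters drop members by their construction, and the cause of the other losses was not tested. On Wy14643 the count of members higher in wild type, 2, became 1 with a mean above 4 or above 6 required, with trended robust moderation and with the replicate block, and was 1 to 2 without 1 array. The replicate block kept all 17 calls of the wild-type response and left 1 of 2, 20 of 21 and 14 of 15 calls between the genotypes on control food, on Wy14643 and in the interaction. Same-numbered arrays of different groups deviated together weakly at most (r = -0.12 to 0.19 over 24 pairs, 6 above 0.1). The median r was 0.05 for these pairs and -0.02 for arrays of other numbers, and 7 of 16 arrays correlated best with their own number. Since nothing in the labels pairs mice either, the numbers were not taken as pairing. With 16 added, the count lower in the interaction went from 15 to 12. Cyp2b10 (limma adjusted p 0.0141), Cyp2c37 and Cyp2c55 lost their calls there. Between the genotypes on Wy14643 the same setting took the count lower in wild type from 19 to 15. The interaction could not be fitted on compared arrays alone, since it uses all of them. Dim signal limits Cyp2b9, Cyp2b13, Cyp2g1, Cyp3a16, Cyp2c37, Cyp2c38 and Cyp2c55.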

Other observations

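Of 11 further Cyp1 to Cyp3 genes on the array that were outside the list, 2 fell in wild-type mice on Wy14643. Cyp1b1, Cyp2b19, Cyp2c65, Cyp2d34, Cyp2j11, Cyp2j13 and Cyp2s1 were dim in all 4 groups, so a fall of these genes could not have been seen. Cyp2c68, from the same cluster as the Cyp2c members, went from 11.65 ± 0.31 (SD, n = 4) to 9.57 ± 0.10, a response of -2.08 ± 0.13 (SE; limma adjusted p 1.55e-09), and read 11.70 ± 0.15 and 11.40 ± 0.06 in the PPARα-null groups. Cyp2d13 went from 9.06 ± 0.12 to 7.26 ± 0.15, a response of -1.80 ± 0.10 (adjusted p 4.42e-10), and read 9.05 ± 0.12 and 9.02 ± 0.11 in the null groups. Cyp2d12 differed between the genotypes instead, with 3.26 ± 0.30 in wild-type and 5.14 ± 0.52 in null controls, a difference of -1.88 on control food and of -2.63 on Wy14643, both called, and its response in wild type of -0.75 was not (adjusted p 0.0244). Cyp1a1, the other aryl hydrocarbon receptor target of the Cyp1a pair, was dim in wild-type mice, at 2.19 on control food and 1.93 on Wy14643. Its response of -0.26 (adjusted p 0.142) is a fitted value.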
